A study of Drosophila melanogaster with 23 samples.

Results

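Both pairs of control ovaries described here carry one label, hsbam: hsbam 3 and hsbam 4 are set against hsbam 1 and hsbam 2. They are 4 of the 23 libraries of the series and were grouped by title and genotype label. These libraries and the gene lists were chosen with earlier results of these data known. All 4 came from Drosophila melanogaster ovaries of the genotype bam RNAi; hsbam>nosGAL4, taken 1 to 5 days after the adults emerged. In the series, hsbam 3 and 4 served as controls for Set2 RNAi, and hsbam 1 and 2 served as controls for MSL3 RNAi and NC2b RNAi. The pairs therefore allow one question: do controls of the same genotype, made for different experiments, hold the same heat-shock and developmental state? Heat-shock times and temperatures, and the interval from heat shock to dissection, were not stated in the labels. Nor do the labels say that the libraries of a pair came from separate dissections, so the p-values measure the spread between these libraries, which may be technical.

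Bam is the factor that lets a daughter of a germline stem cell leave the stem cell state and divide into a cyst; without it, undifferentiated germ cells fill the ovary. The name hs-bam is used for a transgene that puts bam under the promoter of a heat-inducible Hsp70 gene, so that a heat pulse can restart cyst formation in ovaries depleted of bam. The nosGAL4 driver acts in germ cells, whereas a heat pulse reaches the somatic cells of the ovary as well. The heat response itself is driven by Hsf, a transcription factor that binds heat shock elements as a trimer. Its targets include small heat shock proteins, which hold unfolded proteins in solution, and Hsp70 proteins, which refold them together with DnaJ proteins and Hsp90. Hsp26, Hsp27 and Hsp83 are also made by nurse cells in normal oogenesis without any heat.

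The raw counts summed to 39149303 in hsbam 3 and 17253480 in hsbam 4, against 33844807 in hsbam 1 and 18403555 in hsbam 2; over all 23 libraries the totals ran from 2780781 to 39149303. Levels below are CPM, the counts of a gene scaled to the total count in genes of its library. They are not divided by gene length, so they compare libraries and not genes. No pair among the 8 libraries labelled hsbam agreed within sampling noise. The germline genes piwi and aub were counted in all 4 libraries, whereas 23 testis genes together made up 15.9 and 31.7 CPM in hsbam 3 and 4, against 28.1 and 35.2 CPM in hsbam 1 and 2. Genes named as ribosomal RNA took 30.1 and 102 CPM in hsbam 3 and 4, against 3.07 and 81.1 CPM in hsbam 1 and 2. In bulk ovaries, fewer cells of a type and less RNA per cell cannot be told apart.

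Most heat-shock genes were higher in hsbam 3 and 4 than in hsbam 1 and 2, and the small heat shock genes Hsp23 and Hsp26 and the Hsp70 gene Hsp68 stood farthest apart among the abundant ones. The 4 heat-shock lists held 47 genes, of which 41 passed the filter on low counts and 3 were listed at 0 in all 23 libraries. Of the 41, 28 were higher in both hsbam 3 and hsbam 4 than in either of hsbam 1 and 2, 1 was lower in both, and 12 overlapped. Over all 10031 genes tested, the levels of the pairs did not overlap in 12.4% with hsbam 3 and 4 higher and in 25.0% with hsbam 3 and 4 lower. The median log2 fold change of hsbam 3 and 4 over hsbam 1 and 2 was 1.31 over the 41 heat-shock genes and 0.09 over all genes tested. At an unadjusted p under 0.05 in edgeR's quasi-likelihood test, 17 of the 41 were higher and 0 lower, beside a background of 2.82% higher and 3.11% lower over all genes.

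No gene passed that test after adjustment over all genes (0 of 10031, 0.0%, either direction; 283 higher and 312 lower at an unadjusted p under 0.05, together 5.93%), and the smallest adjusted p was 0.802. The spread inside the pairs was large: the common biological coefficient of variation of the 4 libraries was 53.4%. With the same libraries, DESeq2 called 66 genes higher (0.658%) and 56 lower (0.558%), among them 7 of the 41 heat-shock genes, all higher, and limma-voom called 0. In edgeR, 26 genes passed without hsbam 1 and 47 without hsbam 2, of which 1 and 4 were heat-shock genes, and 0 passed without hsbam 3 or without hsbam 4. For a single value, an exact permutation of 2 libraries against 2 cannot give a two-sided p under 0.333. All differences between the pairs below therefore failed the adjusted threshold in edgeR and are given as values with their standard error (SE).

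**Figure D1:**
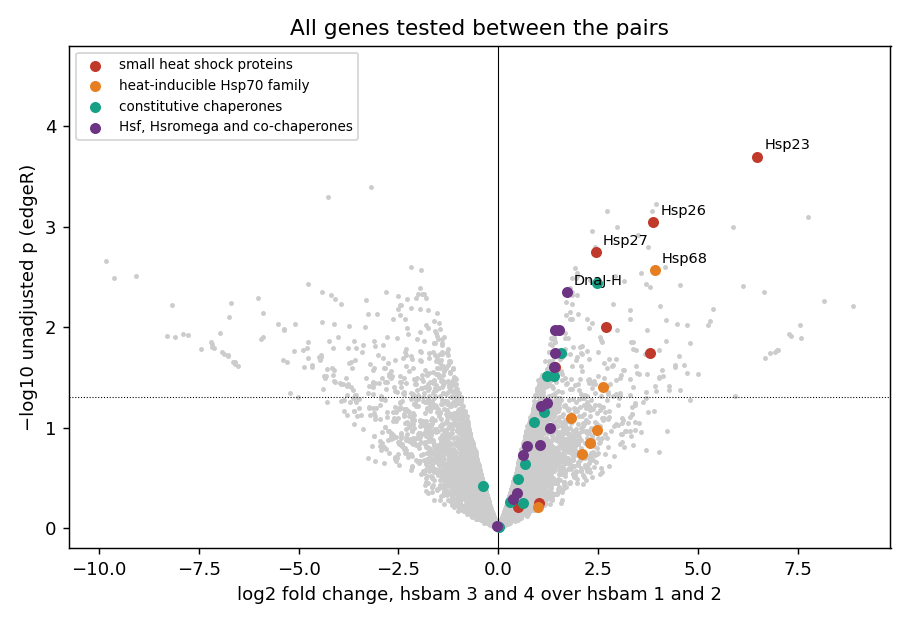
Each point is a gene tested between the pairs: the horizontal axis is the log2 fold change of hsbam 3 and 4 over hsbam 1 and 2, the vertical axis is −log10 of the unadjusted p from edgeR, and the dotted line is the unadjusted threshold. Coloured points are the 41 tested heat-shock genes, of which 17 lie above the line on the right and 0 above it on the left; Hsp23 has the smallest p of all genes tested.

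The small heat shock proteins had the highest median log2 fold change of the 4 lists, at 2.57. Hsp23 had 8245 and 18430.5 CPM in hsbam 3 and 4, against 172 and 170.3 CPM in hsbam 1 and 2. Hsp26 had 5829.8 and 9238 CPM in hsbam 3 and 4, against 474 and 696 CPM in hsbam 1 and 2. In both genes the lowest library of hsbam 3 and 4 stood far above the highest of hsbam 1 and 2. The log2 fold changes were 6.49 ± 0.80 (SE) for Hsp23, with an unadjusted edgeR p of 0.000199, and 3.88 ± 0.63 for Hsp26, with an unadjusted p of 0.000884. Hsp23 passed the adjusted edgeR threshold without hsbam 1 (log2 fold change 6.46) and without hsbam 2 (6.49). Hsp27 had 1313 and 1303 CPM in hsbam 3 and 4, against 245 and 298 CPM in hsbam 1 and 2, and its log2 fold change was 2.45 ± 0.46. In Hsp27 the libraries of each pair lay close together, so that the pairs stood apart with little spread inside them.

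These genes lie side by side with others of the family on chromosome arm 3L of dm6, between 9371511 and 9385694 (9 annotated genes, the antisense asRNA:CR43481 included). Not every gene of the cluster differed to the same degree. Hsp67Ba had 24.6 and 33.8 CPM in hsbam 3 and 4, against 10.3 and 14.7 CPM in hsbam 1 and 2. Hsp67Bc had 44.2 and 25.97 CPM in hsbam 3 and 4, against 5.20 and 49.7 CPM in hsbam 1 and 2, so its pairs overlapped. Hsp22 was listed at 0 in all 23 libraries; it shares exons with CG4456 on the same strand, and counting can drop reads that fit both. CG4461, another small heat shock protein of the cluster, was rare, with 4.19 and 3.13 CPM in hsbam 3 and 4, against 0.502 and 0.0543 CPM in hsbam 1 and 2. Outside the cluster, l(2)efl, whose mammalian relatives are the alpha-crystallins, had 203 and 517 CPM in hsbam 3 and 4, against 91.4 and 37.7 CPM in hsbam 1 and 2. Of 8 small heat shock genes tested, 6 did not overlap between the pairs, all higher in hsbam 3 and 4. Over all genes tested, 12.4% were higher and 25.0% lower without overlap. Hsp27 and Hsp67Ba overlap antisense transcripts, and whether the counting used strand is not given in the sources used here.

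The heat-inducible Hsp70 family was higher in hsbam 3 and 4 too, but it also split hsbam 1 from hsbam 2. Hsp68, a heat-inducible Hsp70 with a single gene, had 2341 and 1863 CPM in hsbam 3 and 4, against 63.6 and 247 CPM in hsbam 1 and 2; its log2 fold change was 3.92 ± 0.79, with an unadjusted edgeR p of 0.00269. It was 3.23 without hsbam 1, and 5.23 without hsbam 2, where it passed the adjusted threshold. Hsp70Aa had 75.6 and 21.6 CPM in hsbam 3 and 4, against 0.768 and 24.1 CPM in hsbam 1 and 2. Hsp70Bc had 114 and 40.9 CPM in hsbam 3 and 4, against 1.33 and 29.3 CPM in hsbam 1 and 2. In Hsp70Aa hsbam 2 lay within the range of hsbam 3 and 4, and hsbam 1 lay far below all 3. Without hsbam 2, the log2 fold change was 6.13 for Hsp70Aa and 6.02 for Hsp70Bc. Without hsbam 1, it was 1.13 for Hsp70Aa and 1.52 for Hsp70Bc. The count behind the level of Hsp70Aa in hsbam 1 was 26, with an exact Poisson 95% interval of 0.502 to 1.13 CPM, which covers counting error only. Hsp70Bb had 179 and 106 CPM in hsbam 3 and 4, against 12.2 and 77.5 CPM in hsbam 1 and 2. The Hsp70 copies are nearly identical in sequence, so how reads were shared among them is uncertain. The list of 7 genes, Hsp68 included, summed to 2739 and 2042 CPM in hsbam 3 and 4. In hsbam 1 and 2 it summed to 78.8 and 385 CPM. Most of that sum was Hsp68 in each library, so it does not give the level of the copies. In Hsp70Aa, Hsp70Bb and Hsp70Bc, hsbam 2 lay nearer to hsbam 4 than to hsbam 1. Of 7 genes tested, 5 did not overlap between the pairs, all higher in hsbam 3 and 4, and 2 did. The shares over all genes tested were 12.4% higher and 25.0% lower without overlap. Because the copies may share reads, the 7 are not separate observations.

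Constitutive chaperones had a smaller median log2 fold change, 0.79. Hsp83, the cytosolic Hsp90, had 7460 and 4557 CPM in hsbam 3 and 4, against 2904 and 3153 CPM in hsbam 1 and 2, a log2 fold change of 1.15 ± 0.52. Hsp60A, the mitochondrial chaperonin, had 1144 and 1460 CPM in hsbam 3 and 4, against 589 and 410 CPM in hsbam 1 and 2, a log2 fold change of 1.57 ± 0.49. Hsc70-5, the mitochondrial Hsp70, had 832 and 719 CPM in hsbam 3 and 4, against 425 and 323 CPM in hsbam 1 and 2. Thus chaperones of both the cytosol and the mitochondrion were on the high side in hsbam 3 and 4. Hsc70-4, the abundant cytosolic cognate, had 8519.9 and 8514 CPM in hsbam 3 and 4, against 6155 and 5847 CPM in hsbam 1 and 2. Trap1, the mitochondrial Hsp90, was the 1 tested gene of the 4 lists that was lower in both libraries of hsbam 3 and 4. It had 105 CPM in hsbam 3 and 62.8 CPM in hsbam 4, against 118 CPM in hsbam 1 and 128 CPM in hsbam 2. Of the 12 tested genes on this list, 7 did not overlap with hsbam 3 and 4 higher, and 4 overlapped. Over all genes tested, 12.4% were higher and 25.0% lower without overlap.

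Among the co-chaperones, 10 of 14 tested genes did not overlap, all higher in hsbam 3 and 4, with a median log2 fold change of 1.14. Over all genes tested, 12.4% were higher and 25.0% lower without overlap. DnaJ-H, a DnaJ protein of the Hsp70 cycle, had 125 and 129 CPM in hsbam 3 and 4, against 44.5 and 43.1 CPM in hsbam 1 and 2, a log2 fold change of 1.71 ± 0.39. Stip1, which joins Hsp70 to Hsp90, had 1184 and 1274 CPM in hsbam 3 and 4, against 493 and 538 CPM in hsbam 1 and 2. Cdc37, which brings kinases to Hsp90, had 240.2 and 210.0 CPM in hsbam 3 and 4, against 99.0 and 91.0 CPM in hsbam 1 and 2. For these 3 genes the pairs stood apart by more than the distance inside either pair. The noncoding lncRNA:Hsromega, which forms nuclear stress bodies after heat, had 674 and 709.7 CPM in hsbam 3 and 4, against 139 and 491 CPM in hsbam 1 and 2. DnaJ-1, the classical heat-inducible DnaJ protein, had 736 and 427 CPM in hsbam 3 and 4, against 157 and 464 CPM in hsbam 1 and 2, and its pairs overlapped. In DnaJ-1, in lncRNA:Hsromega and in the Hsp70 genes alike, hsbam 1 was the lowest of the 4 libraries. Hsf itself had 179 and 64.0 CPM in hsbam 3 and 4, against 97.4 and 110.0 CPM in hsbam 1 and 2, so the message of the factor did not separate the pairs.

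**Figure D2:**
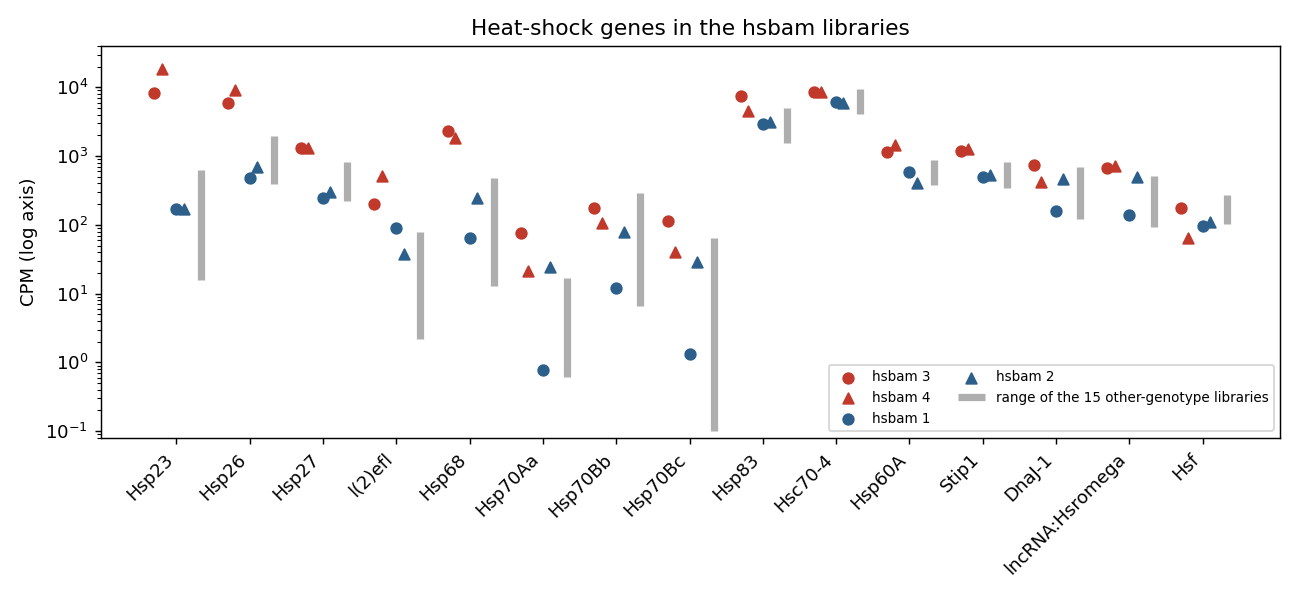
CPM on a log axis of 15 heat-shock genes in hsbam 3 and 4 (red) and hsbam 1 and 2 (blue); the grey bar is the lowest to highest value of the 15 libraries of other genotypes, drawn from 0.1 CPM where the lowest is below that. The red points of Hsp23, Hsp26, Hsp27, l(2)efl and Hsp68 lie above both blue points and above the grey bar, whereas the pairs overlap in Hsp70Aa, DnaJ-1 and Hsf.

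The other libraries of the series place these levels. In the hsbam total RNA from polysome gradients, Hsp23 had 6400 and 12980.0 CPM; in the 15 libraries of other genotypes it ranged from 15.8 to 631 CPM, a range that holds hsbam 1 and 2. Genes that were higher in both libraries of a pair than in every one of those 15 libraries numbered 246 for hsbam 3 and 4 (2.45%), of which 18 were among the 41 heat-shock genes. The same count was 82 for hsbam 1 and 2 (0.817%), with 0 heat-shock genes, and 214 for the hsbam total RNA (2.13%), with 14. These counts share the 15 libraries they are set against. The summed level of the small heat shock list was 15665 and 29554 CPM in hsbam 3 and 4, and 999.6 and 1266 CPM in hsbam 1 and 2. It was 13513 and 22848 CPM in the hsbam total RNA. In bam RNAi ovaries, which have no hsbam in their label, it was 1473 and 1207 CPM. In the whole-ovary library, whose label has no hsbam either, it was 2561 CPM. The order was not the same for every heat-shock gene. In whole ovaries Hsp70Bb had 288 CPM, above its 179 and 106 CPM in hsbam 3 and 4. Hsp67Bc had 98.2 CPM there, above its 44.2 and 25.97 CPM in hsbam 3 and 4.

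bam itself did not follow the small heat shock genes. It had 173 and 77.0 CPM in hsbam 3 and 4, against 4.61 and 71.9 CPM in hsbam 1 and 2, a log2 fold change of 1.85 ± 1.16 with an unadjusted edgeR p of 0.163. hsbam 2 was close to hsbam 4, and hsbam 1 was within the 2.09 and 6.17 CPM of bam RNAi ovaries. The count of bam in hsbam 1 was 156, which gives an exact Poisson 95% interval of 3.91 to 5.39 CPM for counting error alone. The log2 fold change of bam was 4.92 without hsbam 2 and 0.92 without hsbam 1. The counts cannot separate the transgene from the gene at its own locus, and bam overlaps CG11854 on the other strand. The Hsp70 genes and bam thus had the same lowest library, hsbam 1, among the 4.

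Genes that act with or after Bam are given next. bgcn, the protein that Bam binds, had 24.5 and 33.7 CPM in hsbam 3 and 4, against 111 and 87.5 CPM in hsbam 1 and 2, a log2 fold change of −1.58 ± 0.43 with an unadjusted edgeR p of 0.011. Rbfox1, an RNA-binding protein needed in differentiating cysts, had 125 and 89.8 CPM in hsbam 3 and 4, against 118 and 108 CPM in hsbam 1 and 2. RpS19b, a germline paralog of a ribosomal protein, had 67.3 and 259 CPM in hsbam 3 and 4, against 85.4 and 165 CPM in hsbam 1 and 2. Both Rbfox1 and RpS19b overlapped between the pairs. Of 16 genes on the list of bam, its partners and early germline factors, 2 did not overlap with hsbam 3 and 4 higher and 6 with hsbam 3 and 4 lower, beside 12.4% and 25.0% of all genes tested.

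Outside the heat-shock lists, the genes with the smallest p that were higher in hsbam 3 and 4 included glutathione transferases and a protein quality control factor, none past the adjusted threshold. Sgt1, an Hsp90 co-chaperone that none of the lists held, had 311 and 676 CPM in hsbam 3 and 4, against 41.8 and 36.5 CPM in hsbam 1 and 2, a log2 fold change of 3.86 ± 0.60. GstE7, a glutathione transferase, had 42.6 and 81.6 CPM in hsbam 3 and 4, against 5.76 and 3.42 CPM in hsbam 1 and 2, a log2 fold change of 3.95 ± 0.59. Its neighbour GstE8 had 20.3 and 28.1 CPM in hsbam 3 and 4, against 2.51 and 1.41 CPM in hsbam 1 and 2. GstE6, another neighbour chosen after its values were seen, had 177 and 357 CPM in hsbam 3 and 4, against 32.03 and 13.5 CPM in hsbam 1 and 2. The GstE genes are similar in sequence, so reads may be shared among them. On the list of 28 other stress genes tested, 3 did not overlap with hsbam 3 and 4 higher and 5 with hsbam 3 and 4 lower, shares near the 12.4% and 25.0% of all genes tested.

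The remaining genes of that set were CR45458, Culd, Obp44a, Cpr64Ac and CG5290. CR45458 had 21.7 and 11.4 CPM in hsbam 3 and 4, against 0.148 and 0.272 CPM in hsbam 1 and 2, a log2 fold change of 6.47 ± 0.82. Cpr64Ac, a cuticle protein, had 10.4 and 19.9 CPM in hsbam 3 and 4, against 0.443 and 0.109 CPM in hsbam 1 and 2. Both were close to silent in hsbam 1 and 2. CR45458 passed the adjusted edgeR threshold without hsbam 1 (6.03) and without hsbam 2 (6.93), and Cpr64Ac without hsbam 1 (7.22), as log2 fold changes. Culd had 49.4 and 37.4 CPM in hsbam 3 and 4, against 6.50 and 8.26 CPM in hsbam 1 and 2. 4 genes had at most 3 counts over hsbam 1 and 2 together and at least 30 in each of hsbam 3 and 4. With the pairs exchanged, the same rule also gave 4 genes, so near-silence was not more frequent in either pair. CG44836 had 507 counts over hsbam 3 and 4 and 2 over hsbam 1 and 2, a ratio of CPM of 235 with an exact 95% interval of 64.7 to 1944. lncRNA:CR44273, with 87 counts over hsbam 3 and 4 and 0 over hsbam 1 and 2, is given as counts only.

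The genes with the smallest p that were lower in hsbam 3 and 4 included genes of somatic cells and of the RNAi machinery. Wnt4, a signal made by the escort cells that wrap early germ cells, had 7.61 and 9.39 CPM in hsbam 3 and 4, against 39.2 and 48.4 CPM in hsbam 1 and 2, a log2 fold change of −2.18 ± 0.43. apolpp, which encodes the lipid carrier lipophorin, had 93.0 and 99.98 CPM in hsbam 3 and 4, against 483 and 341 CPM in hsbam 1 and 2. Dcr-2, the nuclease of the siRNA pathway, which some RNAi stocks also carry as a transgene, had 248 and 194 CPM in hsbam 3 and 4, against 842 and 1163 CPM in hsbam 1 and 2; it overlaps Rab4 on the other strand. In the 15 libraries of other genotypes Dcr-2 ranged from 137 to 6786 CPM. None of these 3 genes overlapped between the pairs, and none passed the adjusted threshold. CG9411 had 12.8 and 11.4 CPM in hsbam 3 and 4, against 102 and 148 CPM in hsbam 1 and 2. CG3251 had 0.971 and 1.57 CPM in hsbam 3 and 4, against 30.2 and 24.9 CPM in hsbam 1 and 2. CG9411 passed the adjusted edgeR threshold without hsbam 1, at a log2 fold change of −3.46, and CG3251 without hsbam 2, at −4.38. The other genes of this set were CG31869, Fili, Trf5, CG9577 and CG16727; CG16727 had 1 count over hsbam 3 and 4 and 1403 over hsbam 1 and 2, most of them in hsbam 1.

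Most genes of the escort cell, follicle cell and proteasome lists were lower in hsbam 3 and 4, with none past the adjusted threshold. Of 19 escort, cap and terminal filament genes, 13 were lower in both libraries of hsbam 3 and 4 and 1 was higher, and the median log2 fold change was −0.73. tj, a transcription factor of escort and follicle cells, had 159 and 88.5 CPM in hsbam 3 and 4, against 251 and 473 CPM in hsbam 1 and 2. Of 21 follicle, polar and border cell genes, 12 were lower and 1 higher; Fas2, a cell adhesion molecule, had 279 and 241 CPM in hsbam 3 and 4, against 674 and 724 CPM in hsbam 1 and 2. Of 37 proteasome subunits tested, 30 were lower without overlap and 1 higher, with a median log2 fold change of −0.44; their summed level was 5167 and 4971 CPM in hsbam 3 and 4, against 7109 and 7445 CPM in hsbam 1 and 2. The share of all genes that were lower without overlap was 25.0%. Canonical ribosomal protein genes summed to 100298 and 199184 CPM in hsbam 3 and 4, against 119164 and 136540.1 CPM in hsbam 1 and 2, and 67 of 72 overlapped between the pairs.

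On further lists the counts stand beside the same shares over all genes, 12.4% higher and 25.0% lower without overlap. Of 27 fat body, hemocyte and basement membrane genes tested, 10 were lower in hsbam 3 and 4 without overlap and 1 was higher; Lsp2, a larval serum protein, had 6.39 and 13.45 CPM in hsbam 3 and 4, against 249 and 32.4 CPM in hsbam 1 and 2. Of 21 immune genes tested, 10 were lower and 0 higher; AttC, an antibacterial peptide, had 0.332 and 0.058 CPM in hsbam 3 and 4, against 6.71 and 6.19 CPM in hsbam 1 and 2. Of 24 genes of the synaptonemal complex, cohesion and recombination, 7 were lower and 1 higher, and of 68 genes of oxidative phosphorylation, 19 were lower and 4 higher. The last 2 shares are near the 25.0% of all genes.

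The eye colour gene w, also a common marker of transgenes, had 169 and 140 CPM in hsbam 3 and 4, against 77.7 and 97.2 CPM in hsbam 1 and 2. ry, another eye colour gene, had 0.434 and 0.753 CPM in hsbam 3 and 4, against 14.1 and 2.12 CPM in hsbam 1 and 2. Of 8 genes on the list of eye, body and transgene markers, 2 were higher and 4 lower in hsbam 3 and 4 without overlap, beside 12.4% and 25.0% of all genes. None of the 8 had an adjusted p under 0.05 by edgeR, as was so for every gene tested. At an unadjusted edgeR p under 0.05, 2 were higher and 2 lower, beside 2.82% and 3.11% of all genes. DESeq2 called 2 of the 8 lower and 0 higher, beside 0.558% and 0.658% of all genes. The labels give both pairs 1 genotype, and a difference between the stocks was not tested.

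Early genes, defined without any hsbam library as those at least 4-fold higher in both bam RNAi libraries than in UAS-Dcr2;nosGAL4 whole ovaries, which carry the driver without an RNAi transgene in their label, were also compared between the pairs. Of 780 early genes tested, 49 were higher without overlap and 295 lower, against 12.4% and 25.0% of all genes, and their median log2 fold change was −0.33, beside 0.09 over all genes tested. They made up 26.9% of the 312 genes lower at an unadjusted p under 0.05, against 7.78% of all genes tested. Of 293 late genes, defined with the opposite pattern, 30 were higher and 30 lower without overlap, beside the same shares over all genes, with a median log2 fold change of 0.85.

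**Figure D3:**
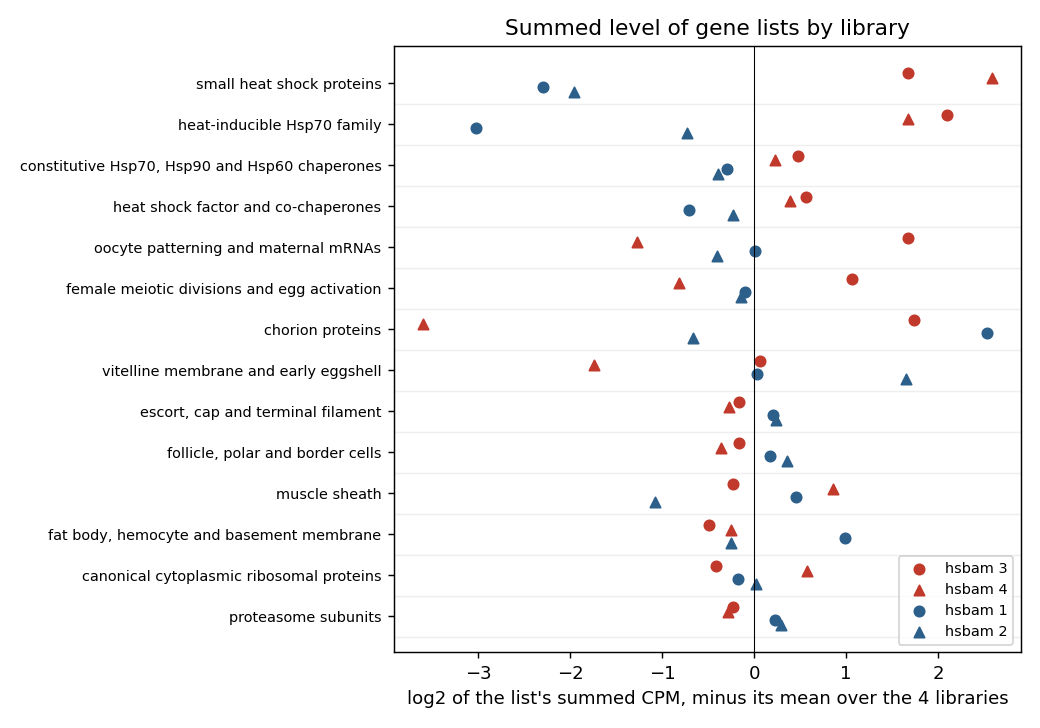
Each row is a gene list, and each point is the log2 of its summed CPM in 1 library minus the mean over the 4 libraries. The red points of hsbam 3 and 4 lie right of the blue points of hsbam 1 and 2 in the 4 heat-shock lists, whereas in the maternal, meiotic division and chorion lists hsbam 3 and hsbam 4 lie on opposite sides of 0.

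Inside hsbam 3 and 4, genes of several kinds varied. Of 8579 genes with at least 50 counts in the higher library, 577 were more than 4-fold higher in hsbam 3 (6.73%) and 408 were more than 4-fold higher in hsbam 4 (4.76%), together 11.5%; each ratio sets 1 library against 1 and has no test. None of the 13 small heat shock and Hsp70 genes with enough counts was past 4-fold in either direction, beside 11.5% of all genes. These are too few genes to set them apart from that share. Genes of the growing oocyte were high in hsbam 3. osk, whose RNA marks the posterior pole of the oocyte, had 958 CPM in hsbam 3 and 11.1 CPM in hsbam 4, beside 81.2 CPM in hsbam 1 and 15.5 CPM in hsbam 2. Between the pairs its log2 fold change was 5.06 without hsbam 1, where it passed the adjusted edgeR threshold, and −1.87 without hsbam 3. yl, the yolk receptor of the oocyte, had 1103 CPM in hsbam 3 and 25.4 CPM in hsbam 4, beside 214 CPM in hsbam 1 and 43.1 CPM in hsbam 2. Of 26 maternal genes with enough counts, 17 were past 4-fold higher in hsbam 3 and 0 in hsbam 4, with a median log2 ratio of 2.53.

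Eggshell genes followed the same split. All 9 chorion genes on the list were past 4-fold higher in hsbam 3 than in hsbam 4, with a median log2 ratio of 5.30; Cp36, a chorion protein, had 441 CPM in hsbam 3 and 7.77 CPM in hsbam 4. Of 17 vitelline membrane and early eggshell genes, 11 were past 4-fold higher in hsbam 3 and 0 in hsbam 4. The abundant early vitelline gene Vm26Aa was an exception, with 573 CPM in hsbam 3 and 553 CPM in hsbam 4. Of 20 genes of the female meiotic divisions and egg activation, 10 were past 4-fold higher in hsbam 3 and 0 in hsbam 4. cad, whose message is loaded into the egg, had 195 CPM in hsbam 3 and 0.753 CPM in hsbam 4, a 214-fold ratio. The split did not reach every gene of these kinds: of 5 genes of yolk proteins and yolk uptake, 1 was past 4-fold higher in hsbam 3 and the median log2 ratio was −0.11, and the maternal gene capu had a log2 ratio of −0.33.

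Stage sets drawn without any hsbam library showed the same split. The series has 1 whole-ovary library of the genotype UAS-Dcr2;nosGAL4, and bam RNAi ovaries hold undifferentiated germ cells. The late set held 300 genes and the early set 795. Of 278 late genes with enough counts, 144 (51.8%) were past 4-fold higher in hsbam 3 than in hsbam 4 and 5 in hsbam 4, with a median log2 ratio of 2.03. Late genes were 3.24% of all genes with enough counts and 25.0% of the 577. Early genes were 7.59% of all and 25.7% of the 408 that were higher in hsbam 4. Across 7845 genes, the log2 ratio of hsbam 3 over hsbam 4 correlated with that of whole ovaries over bam RNAi at Pearson r = 0.38. For hsbam 1 over hsbam 2, Pearson r was −0.0008 over 7937 genes. The rank correlations (Spearman rho) were 0.20 for hsbam 3 over hsbam 4 and 0.08 for hsbam 1 over hsbam 2. Genes are not independent replicates.

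Genes of tissues outside the germ line went both ways between hsbam 3 and hsbam 4. Of 11 midgut enzymes with enough counts, 8 were past 4-fold higher in hsbam 3 and 0 in hsbam 4. Their median log2 ratio was 4.71, but these genes were rare. The whole midgut list summed to 61.4 CPM in hsbam 3 and 17.4 CPM in hsbam 4. Among muscle genes, 5 of 26 were past 4-fold higher in hsbam 4 and 1 in hsbam 3; Mlc2, the myosin light chain, had 2208 CPM in hsbam 3 and 8098 CPM in hsbam 4. The muscle list summed to 22989 CPM in hsbam 3 and 48838 CPM in hsbam 4. MtnA, a metallothionein, had 322 CPM in hsbam 3 and 1909.9 CPM in hsbam 4. TotA, a humoral stress peptide, had 9.04 CPM in hsbam 3 and 67.1 CPM in hsbam 4. Def, an antimicrobial peptide, had 4.83 CPM in hsbam 3 and 37.4 CPM in hsbam 4. The 72 canonical ribosomal protein genes had a median log2 ratio of hsbam 3 over hsbam 4 of −1.22, although only 1 of them was past 4-fold. Ribosomal RNA genes were also higher in hsbam 4, at 30.1 CPM in hsbam 3 and 102 CPM in hsbam 4, and their part in these ratios was not tested.

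Inside hsbam 1 and 2, fewer genes were past 4-fold. Of 8695 genes with enough counts, 317 were past 4-fold higher in hsbam 1 (3.65%) and 150 in hsbam 2 (1.73%), together 5.37%. The list with the most genes past 4-fold higher in hsbam 1 was that of fat body, hemocyte and basement membrane. Lsp1beta, a larval serum storage protein, had 1.76 and 4.405 CPM in hsbam 3 and 4, beside 261 CPM in hsbam 1 and 1.41 CPM in hsbam 2. Fbp1, the receptor for such storage proteins, had 0.843 and 1.68 CPM in hsbam 3 and 4, beside 58.7 CPM in hsbam 1 and 1.09 CPM in hsbam 2. Of 27 fat body, hemocyte and basement membrane genes, 14 were past 4-fold higher in hsbam 1 and 0 in hsbam 2, and the list summed to 5143 and 6076 CPM in hsbam 3 and 4, beside 14361 CPM in hsbam 1 and 6072 CPM in hsbam 2. Act88F, an actin of flight muscle, had 84.7 CPM in hsbam 1 and 0.380 CPM in hsbam 2. These are tissues outside the germ line, and how much of them was taken along at dissection was not tested.

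The chorion genes split in both directions inside this pair. Cp15, Cp16, Cp18 and Cp19, which lie together in the third-chromosome chorion cluster, were high in hsbam 1: Cp18 had 2084 CPM in hsbam 1 and 10.00 CPM in hsbam 2. The X-linked Cp36 and Cp38 were high in hsbam 2: Cp38 had 19.1 CPM in hsbam 1 and 217.3 CPM in hsbam 2. Cp7Fa, Cp7Fb and Cp7Fc were also past 4-fold higher in hsbam 2. In hsbam 3 against hsbam 4, by contrast, all 9 were higher in hsbam 3. Of 261 late genes with enough counts, 36 were past 4-fold higher in hsbam 1 and 31 in hsbam 2, and the median log2 ratio of hsbam 1 over hsbam 2 was 0.72, beside 0.02 over all genes. Late genes were 11.4% of the 317 genes past 4-fold higher in hsbam 1 and 20.7% of the 150 in hsbam 2, against 3.00% of all genes with enough counts. Of 26 maternal genes, 4 were past 4-fold higher in hsbam 1 and 0 in hsbam 2, with a median log2 ratio of 0.52. Of the 5 Hsp70 family genes with enough counts, 4 were past 4-fold higher in hsbam 2 and 0 in hsbam 1, as was Hsp67Bc among the small heat shock genes. hid, a cell death activator, had 32.2 CPM in hsbam 1 and 157 CPM in hsbam 2, and Gadd45, a DNA damage response gene, had 16.3 CPM in hsbam 1 and 125 CPM in hsbam 2. On the list of other stress genes, 5 of 24 were past 4-fold higher in hsbam 2 and 0 in hsbam 1.

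**Figure D4:**
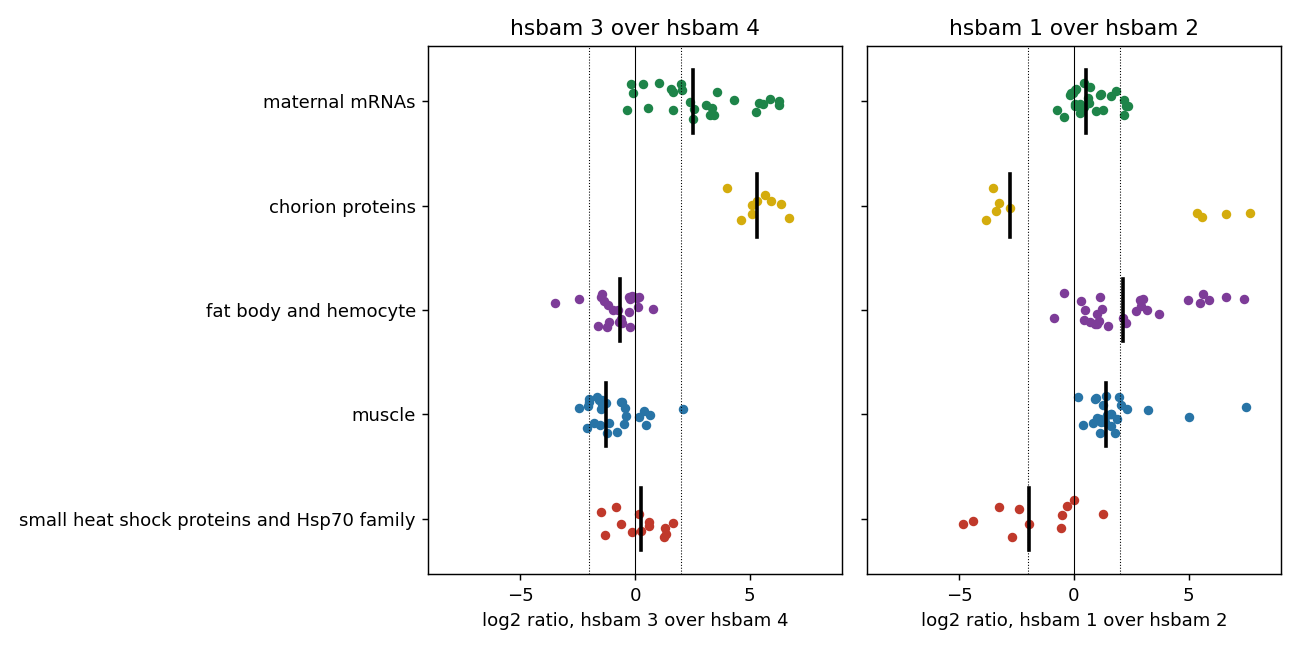
Log2 ratio of hsbam 3 over hsbam 4 (left) and of hsbam 1 over hsbam 2 (right) for the genes of 5 lists with at least 50 counts in the higher library; the black tick is the list's median and the dotted lines mark 4-fold. Chorion genes lie right of the line in hsbam 3 over hsbam 4 and on both sides in hsbam 1 over hsbam 2, and fat body genes reach past 4-fold in hsbam 1.

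The spread differed between duplicates of the series. The coefficient of variation was 58.5% for hsbam 3 and 4 and 39.7% for hsbam 1 and 2, whereas it was 15.7% for the Set2 RNAi libraries that hsbam 3 and 4 were controls for. With all 23 libraries scaled together, 11.3% of genes were past 4-fold between hsbam 3 and 4 and 5.35% between hsbam 1 and 2. The share was 0.591% for Set2 RNAi, 5.29% for MSL3 RNAi, 1.55% for NC2b RNAi and 0.694% for bam RNAi. Other duplicates had larger shares than hsbam 3 and 4: 12.7% for the hsbam total RNA, 16.6% for the S19b RNAi total RNA, 18.6% for the S19b RNAi polysome RNA and 42.2% for the hsbam polysome RNA. The pair of hsbam 3 and 4 thus lay between the tighter and the wider duplicates of the series. By rank correlation over 10623 genes, hsbam 3 was nearest to the first hsbam total RNA library (rho = 0.974), and hsbam 4 was nearest to hsbam 1 (rho = 0.932). hsbam 1 and hsbam 2 were each nearest to a library of bam RNAi ovaries that also carry an S19b mutation (rho = 0.967 and 0.963), so in neither pair was a library nearest to its duplicate. The ratio of hsbam 3 over hsbam 4 correlated with that of the hsbam total RNA libraries, the first over the second, at Pearson r = 0.45 over 7790 genes, which share no library with it.

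**Figure D5:**
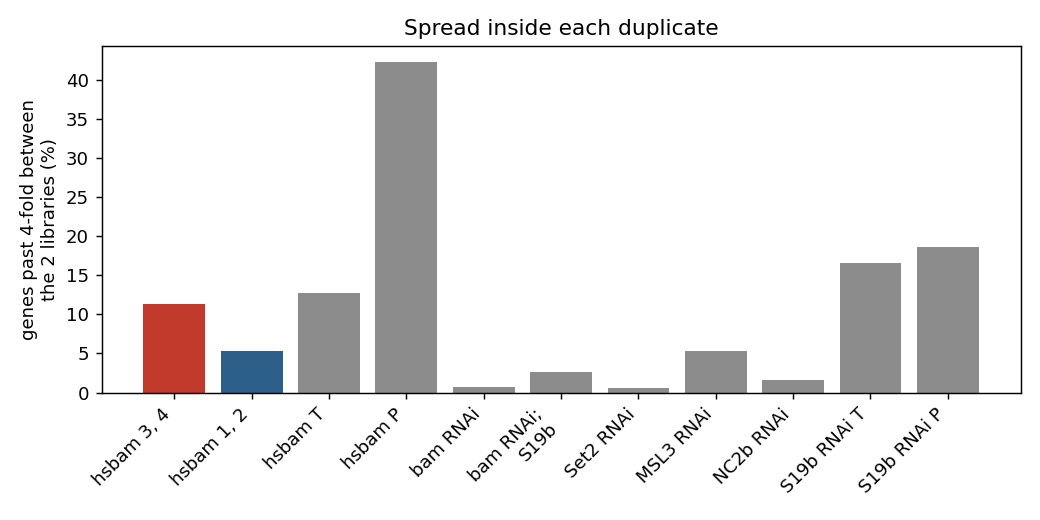
Share of genes, in percent of those with at least 50 counts in the higher library, that differ by more than 4-fold between the 2 libraries of each duplicate. The hsbam 3 and 4 bar (red, 11.3%) and the hsbam 1 and 2 bar (blue, 5.35%) stand beside 0.591% for Set2 RNAi; the tallest bar, hsbam polysome RNA, includes the shallowest library, with 2780781 counts.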

How the data were processed

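Poly(A)-selected ovary RNA was fragmented for 13 minutes and sequenced from a directional kit, per the labels' protocols. Raw counts per gene were deposited, 1 table a library; the submitters' processing notes name HISAT2 2.1.0, featureCounts 1.6.0.4, edgeR 3.16.5 and the build dm6, and the strand setting is not given in the sources used here. Of 17023 gene IDs, 16647 matched a symbol. 8 further small tables were not used. Groups came from titles and genotype labels. hsbam 3 and 4 were compared with hsbam 1 and 2 with edgeR 4.0.16 (R 4.3.3): TMM, filterByExpr, quasi-likelihood test with 2 residual degrees of freedom, Benjamini-Hochberg over all genes tested, threshold 0.05. This design held 4 libraries only. TMM factors were 0.991 and 0.893 for hsbam 3 and 4 and 1.07 and 1.06 for hsbam 1 and 2. Inside a pair, log2 ratios of TMM-scaled CPM with a prior count of 2 are given where the higher library had at least 50 counts; these have no test. The fit was also run on simulated data with a common spread for all genes and libraries. The real pairs differed in spread, so that run does not show what the test could find here. The members and the 31 gene lists were chosen with earlier results of these data known; 16 list entries matched no gene. Named outside the lists were the 10 genes with the smallest p in each direction among those with mean log2 CPM of at least 2 and pairs that did not overlap, and inside pairs those past 4-fold with the largest ratios or on a list. piwi, aub, GstE6, tj, Fas2, Vm26Aa, Mlc2, AttC, Lsp2, w, ry, capu, hid, Cp7Fb, CG44836 and lncRNA:CR44273 were named after their values were seen. Intervals cover counting error only. Alternatives were DESeq2 1.42.0, limma-voom (limma 3.58.1), other scalings, filters and fold minimums, a fit of all 23 libraries, and each library left out.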

Additional observations from a re-analysis of the deposited data

How the results depend on the processing

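The count of genes passing between the pairs was 0 with TMM, with DESeq2 size factors in edgeR, with library size alone, with limma-voom and with a 2-fold minimum. It was 1 without a filter on low counts (Hsp23), 3 with all 23 libraries in 1 fit (Hsp23, Hsp26 and Sgt1) and 122 with DESeq2's own test. Leaving out each library in turn gave 0 to 47 genes; where 1 library of a pair is left, it is assumed to vary like the other pair. Of 430 log2 fold changes recomputed for 43 genes under 10 alternatives, 387 kept their direction and side of the threshold, 41 kept their direction and newly passed, and 2 reversed: RpS19b was −0.79 without hsbam 4 and up to 1.30 with other libraries left out, and osk was −1.87 without hsbam 3 and up to 5.06; the cause was not tested. The number of heat-shock genes higher at an unadjusted p under 0.05 ranged from 7 (without hsbam 1) to 23 (limma-voom), beside 0 lower under each alternative. Scaling by library size alone moved the median log2 fold change of all genes to −0.08, against 0.09 with TMM.

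Genes past 4-fold between hsbam 3 and hsbam 4 numbered 985; the number was 1644 with a count minimum of 10, 653 with a minimum of 200, 3407 at 2-fold and 340 at 8-fold. Between hsbam 1 and hsbam 2 they numbered 467; the number was 878 with a count minimum of 10, 292 with a minimum of 200, 1346 at 2-fold and 206 at 8-fold. Other scalings kept both totals within 1.5 times. The split by direction moved more between hsbam 3 and hsbam 4. With TMM, 577 genes were higher in hsbam 3 and 408 in hsbam 4. These numbers were 661 and 320 with library size alone, and 639 and 345 with DESeq2 size factors. No paired analysis was possible because the pairs share no replicate number. With 2 libraries a pair, the pair and the experiment it was made for cannot be told apart.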
